A study of Homo sapiens with 60 samples.

Results

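The hour between 1 and 2 h after 0.01 nM dimerizer was added is described here, from 3 libraries collected at 2 h and 3 collected at 1 h, 6 of the 60 libraries of the series. They were chosen by their titles alone, which give dose and time. All came from U2OS, an established human osteosarcoma line of labelled genotype WT, carrying an engineered kinase called Dmr-PERK, as did every other library of the series, the untreated ones included. The series held 3 doses (0.01 nM, a middle dose of 195 pM and 3 nM) at 1, 2, 4, 8, 16 and 24 h, with 3 libraries each, and 2 sets of 3 untreated libraries that the labels tie to no dose. Cells were seeded a day before the drug, in serum-containing medium, and total RNA was made into directional libraries. The labels name no untreated culture handled in parallel at 1 or 2 h, so the effect of the drug and that of adding medium or of the time since then cannot be told apart. The labels do not say that the 3 libraries of a group came from separate cultures. The p-values rest on the spread between libraries within groups, estimated over all 20 groups of the 60 libraries, and that spread may be technical.

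PERK is a kinase of the endoplasmic reticulum (ER) membrane that is switched on when its molecules are brought together, and an engineered form with a drug-binding domain can be paired by a small molecule without unfolded protein in the ER. The active kinase phosphorylates the translation initiation factor eIF2 alpha, which lowers general protein synthesis and raises translation of ATF4, a transcription factor for amino acid supply and stress genes; this is the integrated stress response (ISR). Immediate early genes such as FOS and EGR1 encode transcription factors whose mRNAs are short-lived, and NF-kB, the main transcription factor of inflammatory genes, is held back by IkB alpha, a short-lived protein.

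Gene values below are CPM, counts relative to the library's total after TMM scaling, a correction for library composition, and each is a share of a library made from a whole culture, so fewer cells with a transcript and less of it per cell cannot be told apart. Differences are log2 fold changes of 2 h over 1 h from edgeR's quasi-likelihood test across all genes, with a standard error (SE), and a gene is called at a Benjamini-Hochberg adjusted p under 0.05. The 2 h libraries held 7135401, 7604816 and 7931597 counts and the 1 h libraries 7163043, 7588253 and 5598803. The floor of 3 counts came to at most 0.536 CPM in these 6 libraries, a limit of counting error only. This floor and the marker levels in this paragraph are relative to the raw total, without TMM scaling. Mitochondrially encoded mRNAs took 4.63% to 4.75% of the counts at 2 h, against 5.31% to 5.58% at 1 h. They took 8.38% to 9.54% in the first untreated set and 4.4% to 4.5% in the second, and the second set and the 3 nM libraries were deeper, at 20713981 to 28436445 counts a library. Of the mesenchymal and bone-lineage markers, the summed level was 8000 to 8360 CPM at 2 h and 7850 to 8330 CPM at 1 h, with COL1A2, SP7 and TWIST1 under 1 CPM. Epithelial markers summed to 1020 to 1060 CPM at 2 h and 805 to 901 CPM at 1 h, with 2 of the 8 called higher and 1 lower, while blood markers summed to at most 3.17 CPM with CD3E, HBB and HBA1 at 0.

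Of 18040 genes tested, 5086 changed in this hour (28.2%), 2792 of them higher at 2 h (15.5%) and 2294 lower (12.7%). Most changes were small. The median log2 change was 0.34 among the genes called higher and -0.43 among those called lower, and 281 genes rose and 298 fell by at least 2-fold. The median over all genes tested was -0.01. The largest rises included genes of signalling proteins (TRAF1, IRAK2, BIRC3, RRAD) and of secreted proteins and ligands (PTX3, AREG, CSF2, IL11, CXCL8). The largest falls included transcription factors of the immediate early class (FOS, EGR1, EGR2, ATF3, NR4A2).

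**Figure D1:**
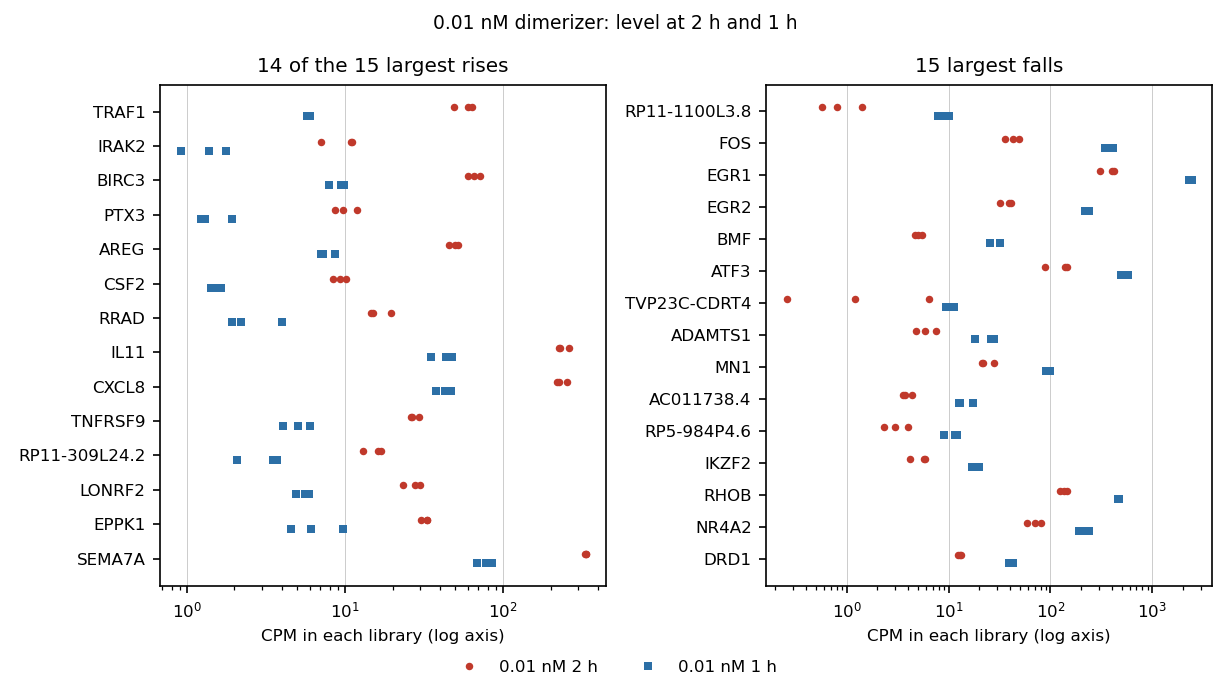
CPM (log axis) in each 2 h and each 1 h library for 14 of the 15 genes with the largest rises and the 15 with the largest falls among called genes with a mean of at least 5 CPM. Each point is 1 library. The 2 h points lie apart from the 1 h points in every row shown, from TRAF1 at 49.3 to 64.0 CPM against 5.72 to 5.98 CPM to DRD1 at 12.4 to 13.3 CPM against 39.4 to 42.6 CPM. The genes were picked for this same difference, so the gap is no separate support for it.

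Promoter sequences of 2 strong risers and 2 strong fallers are shown because they are among the largest changes and belong to NF-kB and immediate early genes, groups that have textbook binding motifs. The windows run from 250 bases before to 50 bases after the RefSeq start (GRCh38.p14), 5′ to 3′ on the gene's own strand, and capitals mark a motif match. BIRC3 lies at chr11:102317234-102317533 on the plus strand, TRAF1 at chr9:120929122-120929421 on the minus strand, EGR1 at chr5:138465229-138465528 on the plus strand and FOS at chr14:75278578-75278877 on the plus strand.
BIRC3: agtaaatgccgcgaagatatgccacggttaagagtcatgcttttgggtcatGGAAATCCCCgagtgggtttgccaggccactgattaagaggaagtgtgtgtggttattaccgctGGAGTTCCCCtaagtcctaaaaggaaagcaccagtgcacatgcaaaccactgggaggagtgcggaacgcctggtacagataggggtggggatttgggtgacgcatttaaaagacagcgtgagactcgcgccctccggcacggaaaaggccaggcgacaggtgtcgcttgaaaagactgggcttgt
TRAF1: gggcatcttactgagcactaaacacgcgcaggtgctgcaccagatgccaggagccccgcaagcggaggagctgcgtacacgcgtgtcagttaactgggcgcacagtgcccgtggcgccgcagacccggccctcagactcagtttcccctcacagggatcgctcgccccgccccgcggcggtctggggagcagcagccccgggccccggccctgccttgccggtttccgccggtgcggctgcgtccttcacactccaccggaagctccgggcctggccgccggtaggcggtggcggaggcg
EGR1: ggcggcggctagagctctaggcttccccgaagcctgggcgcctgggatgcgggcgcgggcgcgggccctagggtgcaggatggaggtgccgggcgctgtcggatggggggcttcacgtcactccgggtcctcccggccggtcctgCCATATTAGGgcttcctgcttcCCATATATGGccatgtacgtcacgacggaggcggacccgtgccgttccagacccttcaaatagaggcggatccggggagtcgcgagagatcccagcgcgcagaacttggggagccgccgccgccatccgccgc
FOS: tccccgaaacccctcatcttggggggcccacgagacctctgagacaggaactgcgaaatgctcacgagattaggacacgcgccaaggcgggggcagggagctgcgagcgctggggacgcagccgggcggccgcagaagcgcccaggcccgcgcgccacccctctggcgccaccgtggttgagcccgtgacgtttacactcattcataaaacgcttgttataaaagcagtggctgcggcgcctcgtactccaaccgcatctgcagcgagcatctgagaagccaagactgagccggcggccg
The BIRC3 window held 2 matches to the NF-kB site, starting 199 and 135 bases before the start, and the EGR1 window held 2 CArG boxes, the site of serum response factor, starting 105 and 83 bases before it. The TRAF1 and FOS windows held no match to any of the 6 motifs searched. The windows of IRAK2 and EGR2, also among the largest changes but not printed, held none either. Having no match says only that those letters are not in these 300 bases. Searched on both strands over all 35116 promoters of the RefSeq table, the NF-kB site was in 11.3%, the AP-1 site TGANTCA in 7.71%, the EGR site GCGGGGGCG in 5.07%, the core of the C/EBP-ATF element TGATGNAA in 3.62%, the cAMP response element TGACGTCA in 1.85% and the CArG box in 1.29%. Of the 15 largest risers, 11 had a promoter in the table; 3 held an NF-kB site (TNFRSF9, PTX3, BIRC3), 3 an AP-1 site (TNFRSF9, CXCL8, IL11) and 1 a cAMP response element (AREG). Of the 15 largest fallers, 9 had one; EGR1 held a CArG box, ATF3 a C/EBP-ATF core, BMF an NF-kB site and TVP23C-CDRT4 an EGR site.

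NF-kB and inflammatory genes rose as a group. Of 27 listed genes 25 were tested, and 19 rose and 3 fell, with a median log2 change of 1.10. For this list and those that follow, the shares over all genes tested were 15.5% higher and 12.7% lower. TRAF1 (ENSG00000056558.10, chr9:120902393-120929173), an adaptor of tumour necrosis factor receptors and an NF-kB target, had 49.3, 60.3 and 64.0 CPM at 2 h, against 5.91, 5.72 and 5.98 CPM at 1 h. The groups were far apart, a 9.9-fold rise (log2 change 3.31, SE 0.20, adjusted p = 2.14e-20). BIRC3, an inhibitor of apoptosis that ubiquitinates NF-kB pathway proteins, had 60.2, 71.7 and 65.7 CPM at 2 h, against 9.89, 9.5 and 7.91 CPM at 1 h. Each 2 h library exceeded every 1 h library (log2 change 2.84, SE 0.15, adjusted p = 1.29e-23). IRAK2, a kinase of interleukin 1 and Toll-like receptor signalling, was lower in counts, with 7.01, 11.1 and 10.9 CPM at 2 h, against 1.37, 0.911 and 1.76 CPM at 1 h (log2 change 2.88, SE 0.25, adjusted p = 2.13e-14).

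The pathway's own transcription factors rose with the targets. NFKB1, which encodes the p105 and p50 subunits, had 215, 223 and 233 CPM at 2 h, against 54.3, 59.1 and 66.8 CPM at 1 h (log2 change 1.91, SE 0.05, adjusted p = 3.31e-36). RELB had 80.6, 74.2 and 77.8 CPM at 2 h, against 20.5, 22.1 and 22.9 CPM at 1 h (log2 change 1.83). The inhibitors of the pathway did not move together. NFKBIA, which encodes IkB alpha, fell to 85.1, 86.8 and 87.3 CPM at 2 h, against 122, 125 and 114 CPM at 1 h (log2 change -0.48, SE 0.06, adjusted p = 3.62e-09). NFKBIZ fell by 0.94 on the log2 scale and PTGS2, the inducible cyclooxygenase, also fell by 0.94, while the inhibitor gene NFKBIE rose by 1.15 and TNFAIP3, a deubiquitinase that restrains the pathway, by 0.94. TNF (log2 change 0.42, adjusted p = 0.504) and IL6 (0.01, adjusted p = 0.99) had low counts and were not called.

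Several genes of secreted proteins rose. IL11, a cytokine of the interleukin 6 family, had 229, 262 and 225 CPM at 2 h, against 35.2, 47.9 and 43.4 CPM at 1 h (log2 change 2.50, SE 0.08, adjusted p = 1.59e-32). CXCL8, the neutrophil-attracting chemokine interleukin 8, had 219, 254 and 226 CPM at 2 h, against 43.0, 46.7 and 37.5 CPM at 1 h (log2 change 2.45, SE 0.13, adjusted p = 6.98e-23). For both genes each 2 h library lay far above every 1 h library. CSF2, which encodes the growth factor GM-CSF, reached 9.32 ± 0.86 CPM at 2 h, against 1.54 ± 0.12 CPM at 1 h (SD, n = 3 each; log2 change 2.58). PTX3, a secreted pattern recognition protein, reached 10.1 ± 1.7 CPM at 2 h, against 1.49 ± 0.38 CPM at 1 h (SD, n = 3 each; log2 change 2.74).

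Ligands of the EGF receptor and angiogenic factors rose in 8 of 10 tested members, with 1 lower and a median of 0.88. AREG, the EGF receptor ligand amphiregulin, had 49.6, 52.2 and 45.3 CPM at 2 h, against 7.28, 8.71 and 7.04 CPM at 1 h, with no overlap (log2 change 2.66, SE 0.12, adjusted p = 2.14e-26). HBEGF had 250, 258 and 250 CPM at 2 h, against 55.1, 81.0 and 88.6 CPM at 1 h, where the spread was wider (log2 change 1.77). EREG rose by 1.64 and PDGFA by 1.51 on the log2 scale, and VEGFA, the main angiogenic factor, by 0.88. PGF, a VEGF relative, was the member that fell (log2 change -0.68).

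Cell surface and signalling proteins were also among the largest rises. SEMA7A, a membrane-anchored semaphorin, had 334, 330 and 334 CPM at 2 h, against 68.6, 77.9 and 85.5 CPM at 1 h (log2 change 2.11, SE 0.08). The 2 h libraries were nearly equal in SEMA7A and well apart from the 1 h libraries. TNFRSF9, the costimulatory receptor 4-1BB, reached 27.2 ± 1.8 CPM at 2 h, against 5.04 ± 0.97 CPM at 1 h, and the small GTPase RRAD 16.5 ± 2.7 CPM at 2 h, against 2.71 ± 1.1 CPM at 1 h (SD, n = 3 each). LONRF2 and EPPK1 rose by 2.29 and 2.20 on the log2 scale.

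Immediate early genes mostly fell. Of 33 tested, 22 fell and 8 rose, with a median of -0.67. FOS (ENSG00000170345.9, chr14:75278774-75282230), the founding member of the AP-1 transcription factors, had 43.3, 49.1 and 36.1 CPM at 2 h, against 413, 414 and 345 CPM at 1 h. It was 9.16-fold lower at 2 h (log2 change -3.20, SE 0.11, adjusted p = 8.02e-32). EGR1, a zinc finger factor induced by growth signals, had 420, 401 and 304 CPM at 2 h, against 2310, 2440 and 2420 CPM at 1 h (log2 change -2.67, SE 0.08, adjusted p = 3.59e-35), and its relative EGR2 40.9, 38.9 and 32.3 CPM at 2 h, against 241, 221 and 231 CPM at 1 h (log2 change -2.63). In FOS, EGR1 and EGR2 the third 2 h library was the lowest of the 6. JUN fell to 242, 254 and 220 CPM at 2 h, against 759, 737 and 704 CPM at 1 h (log2 change -1.62), and the orphan nuclear receptor gene NR4A2 to 69.9, 80.0 and 58.4 CPM at 2 h, against 228, 238 and 192 CPM at 1 h (log2 change -1.67). RHOB, which encodes a small GTPase of the actin cytoskeleton, was no member of the list and fell to 137, 147 and 123 CPM at 2 h, against 466, 472 and 472 CPM at 1 h (log2 change -1.79, SE 0.06).

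The members that rose were a different set of the class. IER5L rose by 1.59 and FOSL2, an AP-1 partner, by 1.25 on the log2 scale, to 943, 963 and 997 CPM of FOSL2 at 2 h, against 430, 402 and 384 CPM at 1 h. ARC and KLF10 rose by 1.15 and 0.83. Feedback genes of the ERK kinase pathway also went both ways, with 8 higher and 5 lower of 16 tested and a median of 0.15 that was 0.0971 without 1 h replicate 1 and 0.237 without 1 h replicate 2. The receptor kinase gene EPHA2 (log2 change 1.01) and the EGF receptor inhibitor ERRFI1 (0.82) rose, while the phosphatase gene DUSP1 (-1.34) and IER3 (-0.75) fell.

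The untreated levels of these genes differed between the 2 sets, so the fall cannot be set against 1 starting level. FOS had 650 ± 137 and 85.0 ± 7.3 CPM in the untreated sets, 391 ± 39 CPM at 1 h, 42.8 ± 6.5 CPM at 2 h and 7.63 ± 0.67 CPM at 4 h (SD, n = 3 each). EGR1 had 2430 ± 164 and 1420 ± 107 CPM in the untreated sets, 2390 ± 70 CPM at 1 h, 375 ± 62 CPM at 2 h and 42.7 ± 4.0 CPM at 4 h (SD, n = 3 each). At 2 h both genes were below either set, and the fall went on afterwards. Between 2 and 4 h, an interval that shares the 2 h libraries and in which 31.2% of all genes were called, 31 of the 33 listed genes fell.

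**Figure D2:**
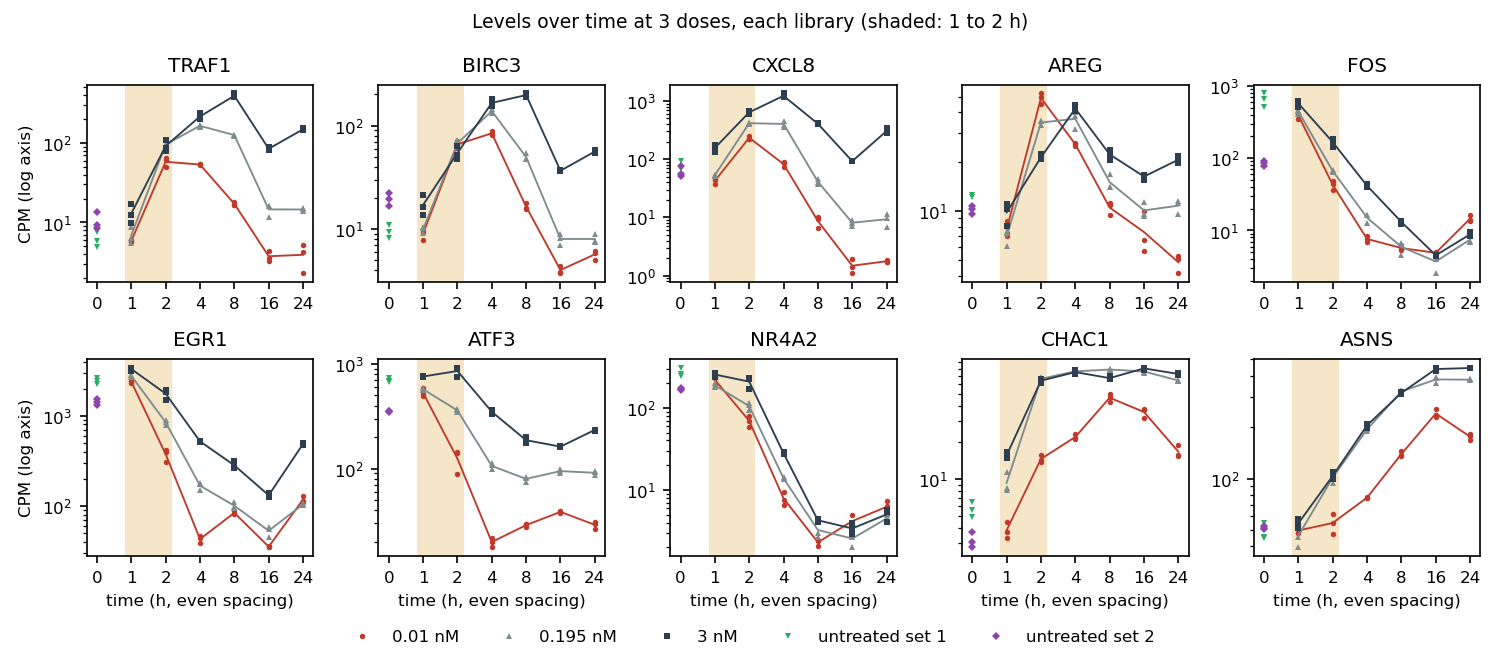
CPM (log axis) in each library (points, with lines joining the means of 3) against hours of dimerizer for 10 genes at 0.01 nM, the middle dose and 3 nM, with both untreated sets, and the hour from 1 to 2 h shaded. TRAF1, BIRC3, CXCL8 and AREG climb in the shaded hour at 0.01 nM, FOS, EGR1, ATF3 and NR4A2 drop, and ASNS, at 54.9 CPM at 2 h of 0.01 nM, reaches 240 CPM at 16 h.

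The risers differed in their later course. TRAF1 had 6.12 ± 1.4 and 10.5 ± 2.7 CPM in the untreated sets, 5.87 ± 0.13 CPM at 1 h, 57.9 ± 7.6 CPM at 2 h, 53.4 ± 0.6 CPM at 4 h and 3.77 ± 0.57 CPM at 16 h (SD, n = 3 each). BIRC3 had 9.56 ± 1.5 and 19.6 ± 2.8 CPM in the untreated sets, 9.1 ± 1.1 CPM at 1 h, 65.9 ± 5.8 CPM at 2 h, 84.3 ± 3.2 CPM at 4 h and 4.04 ± 0.37 CPM at 16 h (SD, n = 3 each). Neither was above its untreated levels at 1 h, and both were below them at 16 h. CXCL8 had 71.3 ± 21 and 61.4 ± 13 CPM in the untreated sets, 42.4 ± 4.7 CPM at 1 h, 233 ± 18 CPM at 2 h, 82.2 ± 8.4 CPM at 4 h and 1.48 ± 0.41 CPM at 16 h (SD, n = 3 each). Of these times CXCL8 was highest at 2 h and BIRC3 at 4 h.

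BCL2 family and death genes did not move together. Of 17 tested 3 rose, 5 fell and 9 were not called, with a median of 0.0531, and with limma on log2(TPM + 1) 3 rose and 3 fell with a median of -0.0411. BMF, a BH3-only protein that promotes apoptosis, had 5.0, 4.68 and 5.53 CPM at 2 h, against 32.2, 25.6 and 31.7 CPM at 1 h (log2 change -2.54, SE 0.17, adjusted p = 8.86e-19). BCL2L11, which encodes the BH3-only protein BIM, fell by 1.16 and BBC3, which encodes PUMA, by 0.71. The death receptor gene TNFRSF10B, a target of the ISR factor CHOP, rose by 0.38. Other large falls were in ADAMTS1, a secreted protease (log2 change -2.00), MN1, a transcriptional coregulator (-2.00), IKZF2, a zinc finger factor (-1.81), and DRD1, a dopamine receptor (-1.67).

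ISR genes went both ways in this hour at this dose. Of 30 core genes and ATF4 or CHOP targets 15 rose, 5 fell and 10 were not called, with a median of 0.18. ATF4 had 400, 408 and 394 CPM at 2 h, against 336, 332 and 322 CPM at 1 h, a small rise with no overlap (log2 change 0.28, SE 0.04, adjusted p = 5.83e-09). CHAC1, a glutathione-degrading enzyme induced by ATF4, rose most in the list, with 13.9, 14.3 and 15.6 CPM at 2 h, against 3.3, 4.42 and 3.69 CPM at 1 h (log2 change 1.93, SE 0.15, adjusted p = 3.84e-16). TRIB3, a pseudokinase that feeds back on ATF4, had 39.6, 36.7 and 40.2 CPM at 2 h, against 20.1, 22.9 and 22.0 CPM at 1 h (log2 change 0.84, SE 0.12). HERPUD1, an ER-associated degradation factor, rose by 1.21, CEBPD by 1.16 and the mTOR inhibitor gene DDIT4 by 0.99.

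Several canonical targets were not called. ASNS, asparagine synthetase, had 62.3, 47.5 and 54.9 CPM at 2 h, against 52.6, 48.0 and 48.0 CPM at 1 h. The groups overlapped (log2 change 0.14, SE 0.08, adjusted p = 0.196), and without 2 h replicate 2 the change was 0.24 with an adjusted p of 0.0303. DDIT3, which encodes CHOP, had 48.6, 44.4 and 37.5 CPM at 2 h, against 34.9, 41.9 and 38.0 CPM at 1 h, again overlapping (log2 change 0.18, SE 0.10, adjusted p = 0.201). SESN2 (0.07, adjusted p = 0.543) and CTH (0.09, adjusted p = 0.748) were not called either. ATF3, an ISR target and also an immediate early gene, fell to 140, 145 and 88.3 CPM at 2 h, against 584, 517 and 491 CPM at 1 h (log2 change -2.10, SE 0.08, adjusted p = 4.59e-30). PPP1R15A, which encodes GADD34, a phosphatase subunit through which eIF2 alpha loses its phosphate, fell to 62.1, 67.4 and 58.6 CPM at 2 h, against 109, 109 and 119 CPM at 1 h (log2 change -0.83, SE 0.07).

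Amino acid supply genes rose in 11 of 25 tested and the other 14 were not called, with a median of 0.14 that was 0.239 without 2 h replicate 2. The transporters led: SLC7A1, for cationic amino acids, rose by 1.13, SLC7A5, for leucine and other large neutral amino acids, by 0.89, SLC38A1 by 0.62 and SLC3A2 by 0.58. Enzymes of serine, cysteine and proline synthesis moved less, and PSAT1 (0.14), PHGDH (-0.04) and PSPH (-0.22) were not called. Cytosolic tRNA synthetase genes rose in 14 of 20 and fell in 1, QARS (log2 change -0.10), with a median of 0.23 and CARS highest at 0.46.

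Ribosome biogenesis factors rose in 29 of 32 and the other 3 were not called, with a median of 0.40. RRS1 rose by 1.16, RRP12, a pre-ribosome export factor, by 1.10, NOP16 by 0.81 and POLR1B, a subunit of RNA polymerase I, by 0.79. For RRP12 this was 125 ± 1.0 CPM at 2 h, against 58.0 ± 6.6 CPM at 1 h (SD, n = 3 each). Genes of the ribosomal proteins themselves were at a median of 0.01. Of 75 such genes, edgeR's test called 0, as did DESeq2, limma on log2(TPM + 1) called 1, and 1 had an unadjusted p under 0.05.

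ER chaperones and degradation factors rose in 23 of 24 tested and the other 1 was not called, with a median of 0.31, and limma on log2(TPM + 1) called 15 of them higher. HSPA5, the main ER chaperone BiP, had 872, 849 and 825 CPM at 2 h, against 490, 488 and 501 CPM at 1 h (log2 change 0.78, SE 0.04, adjusted p = 3.19e-26). DNAJC3, a BiP cochaperone, had 24.9, 22.9 and 25.2 CPM at 2 h, against 13.1, 17.3 and 13.9 CPM at 1 h (log2 change 0.71, SE 0.11). ERN1, which encodes the sensor IRE1 alpha, rose by 0.72 and XBP1, its mRNA target, by 0.59. Of 20 heat shock chaperone genes tested 7 rose, 4 fell and 9 were not called, with a median of 0.07. Among them the near-identical HSPA1A and HSPA1B, whose reads the counting could share out either way, both changed by -0.24. The call on HSPA1B was lost without 1 h replicate 1 (adjusted p = 0.0891), 1 h replicate 2 (0.0669) or 2 h replicate 3 (0.311).

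**Figure D3:**
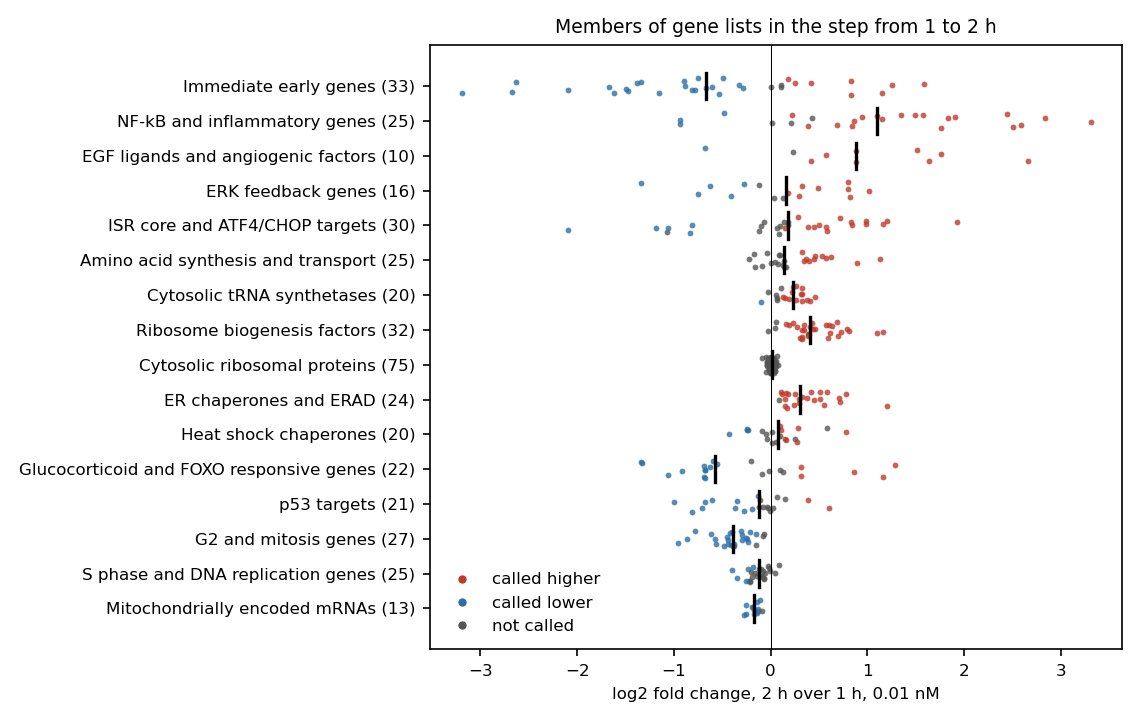
Log2 fold change of 2 h over 1 h at 0.01 nM for each tested member (points) of 16 gene lists, with the list's median as a bar. NF-kB genes have a median of 1.10 and immediate early genes one of -0.67, with members on both sides of 0, while ribosome biogenesis factors and ER chaperones lie almost wholly above 0 and G2 and mitosis genes below it.

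Mitotic genes fell. Of 27 G2 and mitosis genes 24 fell and 3 were not called, with a median of -0.39. The spindle checkpoint kinase gene TTK had 15.5 ± 0.45 CPM at 2 h, against 30.1 ± 1.0 CPM at 1 h (SD, n = 3 each; log2 change -0.96, SE 0.10, adjusted p = 2.19e-11). CENPA, the centromeric histone, fell by 0.86 and AURKA by 0.78. Of 25 S phase genes 7 fell and 18 were not called, with a median of -0.12. This count of 7 was 1 without 1 h replicate 1, 4 without 1 h replicate 3, 3 without 2 h replicate 2, 2 without 2 h replicate 3 and 11 without 2 h replicate 1. The CDK inhibitor gene CDKN1B, which encodes p27, fell to 20.5 ± 1.9 CPM at 2 h, against 47.1 ± 5.3 CPM at 1 h (SD, n = 3 each; log2 change -1.20).

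Glucocorticoid and FOXO responsive genes fell in 12 and rose in 5 of 22 tested, with a median of -0.58; KLHL24 fell by 1.06 and CCNG2 by 0.91, while the metallothionein gene MT1X rose by 1.29. Genes of BMP, TGF-beta and Wnt feedback went both ways, with 7 higher and 9 lower of 25 and a median of -0.0752, BMP4 at 16.3 ± 1.2 CPM at 2 h, against 47.8 ± 5.3 CPM at 1 h (SD, n = 3 each), HES1 lower by a log2 change of -1.12 and the BMP targets ID4 and ID3 higher by 1.01 and 0.86. Of 20 hypoxia and glycolysis genes tested 7 rose, 4 fell and 9 were not called, with a median of 0.03. Among them HK2, hexokinase 2, rose to 58.7 ± 4.9 CPM at 2 h, against 17.5 ± 2.2 CPM at 1 h (SD, n = 3 each). Of 17 clock genes 4 rose, 5 fell and 8 were not called, and 2 rose and 4 fell with limma on log2(TPM + 1). Over all genes tested, edgeR's test called 15.5% higher and 12.7% lower. The repressor NR1D1 fell by 1.41 and PER2 rose by 0.72. Targets of p53 fell in 10 and rose in 2 of 21, with TP53INP1 among those lower. All but 1 of 13 mitochondrially encoded mRNAs fell slightly, with a median of -0.17.

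Of the 5086 called genes, 553 (10.9%) were called in none of the 5 other intervals of the dose, from untreated to 1 h, 2 to 4 h, 4 to 8 h, 8 to 16 h and 16 to 24 h, in which 28.1%, 31.2%, 28%, 33.5% and 23.6% of genes were called. The untreated value was the mean of both sets, each with equal weight, although they differed in genes such as FOS. Not being called there is no test that the intervals differ. The share of all genes tested that were called in none of those 5 intervals was not counted. The 10.9% can therefore not be read as few or many. Of the 553 genes, 238 rose and 315 fell, 47 and 91 of them by at least 2-fold. Among those with larger counts, TUBE1, a tubulin of centrioles, had 17.4 ± 1.9 CPM at 2 h, against 9.16 ± 0.57 CPM at 1 h, and MYLIP, a ubiquitin ligase of the LDL receptor, 16.3 ± 0.8 CPM at 2 h, against 30.8 ± 3.8 CPM at 1 h (SD, n = 3 each). ITPKB, an inositol trisphosphate kinase, fell to 5.29, 5.62 and 8.23 CPM at 2 h, against 15.7, 17.6 and 13.0 CPM at 1 h (log2 change -1.28). NYAP1 (-1.41), the MYC antagonist MXD1 (-1.16) and the splicing factor RBM20 (-1.16) also fell, and C6orf132 (0.80) and the G protein subunit GNB3 (0.79) rose. TVP23C-CDRT4, a readthrough transcript whose reads overlap its neighbours, had 6.43, 1.2 and 0.257 CPM at 2 h, against 9.76, 11.2 and 9.5 CPM at 1 h. Its 2 h libraries disagreed widely, and its call (log2 change -2.01, adjusted p = 0.00319) was lost without 2 h replicate 3 (-1.44, adjusted p = 0.0506).

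The same hour at the other doses rests on other libraries, so it can be tested against this one. At the middle dose 29.7% of genes were called (5362) and at 3 nM 31.3% (5648). With limma on log2(TPM + 1) these counts were 3795 and 1657, and 3848 at 0.01 nM, so the order of the doses depends on the method, and the shared counts that follow rest on edgeR's calls. Of the 5086 genes called at 0.01 nM, 3550 were called the same way at the middle dose, which is 69.8% of the 0.01 nM list and 66.2% of the list of the middle dose. With 3 nM 3014 were shared, 59.3% of the 0.01 nM list and 53.4% of the 3 nM list. Across 12202 genes of at least 5 CPM the correlation of the log2 changes was 0.854 with the middle dose and 0.708 with 3 nM, and across all 18040 genes tested, low ones included, it was 0.479 and 0.344, as a description over genes that are not independent. The changes differed between 0.01 nM and the middle dose for 225 genes (1.25%), 42 with the more positive change at 0.01 nM and 183 with the more negative one. Against 3 nM they differed for 1742 genes (9.66%), 754 more positive and 988 more negative at 0.01 nM, a split that turned to 443 and 238 with limma on log2(TPM + 1) and to 834 and 675 without a filter on low counts. The 3 nM libraries of these times held 23797329 to 26599752 counts each, more than any 0.01 nM library, and the part of depth in these counts was not tested.

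**Figure D4:**
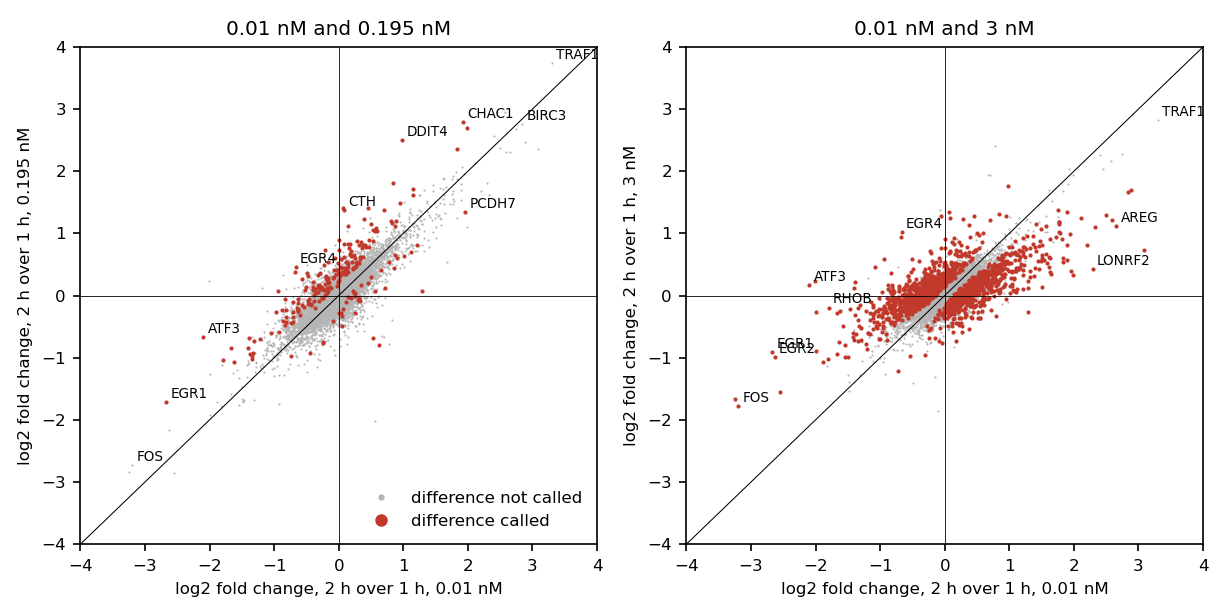
Log2 fold change of 2 h over 1 h at 0.01 nM (horizontal) against the same hour at the middle dose (left) and 3 nM (right), 1 point for each gene of at least 5 CPM. Red points are genes whose change differed between the doses by edgeR's test on all genes, 225 tested genes for the middle dose and 1742 for 3 nM before the CPM limit of the plot.

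Many ISR targets rose less at 0.01 nM. The list counts of differing changes, here and below, stand beside those over all 18040 genes tested. Of these, 42 were more positive and 183 more negative at 0.01 nM than at the middle dose (1.25% together). Against 3 nM they were 754 and 988 (9.66% together). In the ISR core list 16 of 30 changes differed from those at the middle dose, each more negative at 0.01 nM. Against 3 nM 20 were more negative and 3 more positive at 0.01 nM. The medians were 0.18 at 0.01 nM, 0.99 at the middle dose and 0.72 at 3 nM. DDIT4 had 84.5 ± 3.6 CPM at 2 h and 42.5 ± 6.9 CPM at 1 h of 0.01 nM, and 341 ± 9 CPM at 2 h and 60.1 ± 2.9 CPM at 1 h of the middle dose (SD, n = 3 each). The difference between these changes was -1.52 (SE 0.11, adjusted p = 3.52e-16). SESN2, a leucine sensor and stress protein, changed by 0.07 at 0.01 nM, 1.41 at the middle dose and 1.34 at 3 nM (difference to the middle dose -1.35, SE 0.09). CTH changed by 0.09, 1.37 and 1.25, ASNS by 0.14, 1.12 and 0.93, and TRIB3 by 0.84, 1.82 and 1.31 at these doses. For CHAC1 the change of 1.93 at 0.01 nM was smaller than the 2.79 at the middle dose (difference -0.86, adjusted p = 0.0104), but its difference to 3 nM was -0.10 with an SE of 0.18 (adjusted p = 0.831). Of 25 amino acid supply genes 14 had a more negative change at 0.01 nM than at the middle dose. The other 11 did not differ by the test. Against 3 nM 16 were more negative and 2 more positive at 0.01 nM.

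**Figure D5:**
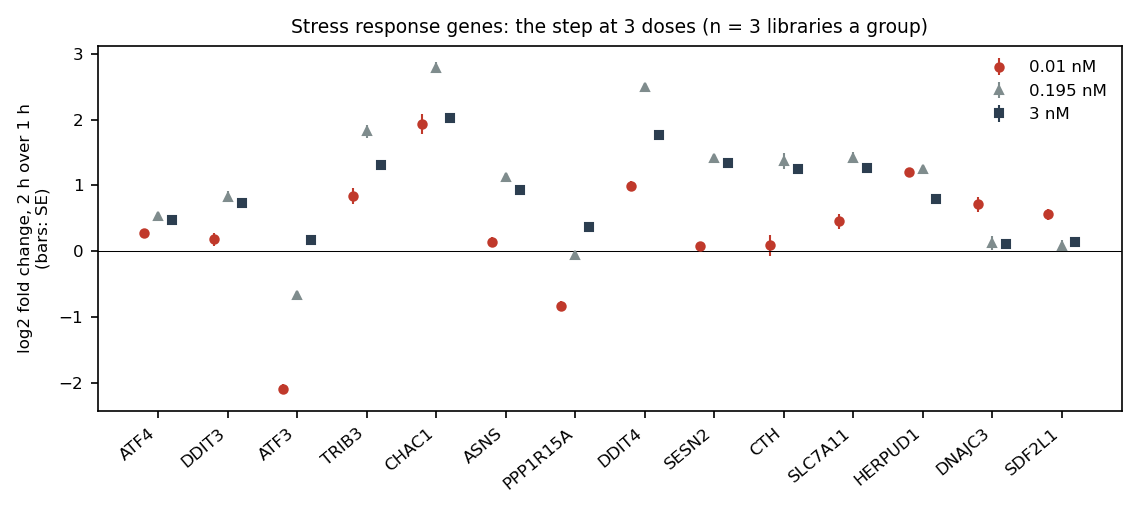
Log2 fold change of 2 h over 1 h at 0.01 nM, the middle dose and 3 nM for 14 genes (bars are SE from edgeR's fit). SESN2 is at 0.07, 1.41 and 1.34 at the 3 doses and ATF3 at -2.10, -0.67 and 0.17.

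ER chaperones differed the other way. In 5 of 24 the change at 0.01 nM was more positive than at the middle dose and in 1 more negative, and the numbers were 12 and 1 against 3 nM. DNAJC3 changed by 0.71 at 0.01 nM, 0.12 at the middle dose and 0.11 at 3 nM (differences 0.59 and 0.61), and HSPA5 by 0.78, 0.54 and 0.49 (differences 0.25 and 0.30). PCDH7, a protocadherin, rose at every dose, by 1.96, 1.34 and 0.40. HSPA1B changed by -0.24 at 0.01 nM, -0.77 at the middle dose and -0.68 at 3 nM.

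Many immediate early genes fell further in this hour at 0.01 nM than at the higher doses. Of 33 genes 15 had a more negative change at 0.01 nM than at the middle dose and 18 were not called, while against 3 nM 22 were more negative and 3 more positive at 0.01 nM. The medians were -0.67 at 0.01 nM, -0.19 at the middle dose and 0.18 at 3 nM. ATF3 changed by -2.10, -0.67 and 0.17 (differences -1.42, SE 0.11, adjusted p = 2.71e-15 and -2.27, SE 0.10, adjusted p = 4.84e-25). At 2 h it stood at 125 ± 32 CPM at 0.01 nM, 360 ± 11 CPM at the middle dose and 857 ± 93 CPM at 3 nM, with 531 ± 48, 574 ± 10 and 760 ± 12 CPM at 1 h (SD, n = 3 each). Some genes moved in opposite directions, 18 of those called at both 0.01 nM and the middle dose and 122 of those called at both 0.01 and 3 nM. EGR4 fell at 0.01 nM and rose at the higher doses (-0.66, 0.46 and 1.02), as did MYC (-0.49, 0.36 and 0.44), while SOX9, a factor of cartilage development, rose at 0.01 nM and fell at the higher doses (0.25, -0.28 and -0.45).

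Most NF-kB genes rose at each dose, with 19 higher and 3 lower of 25 at 0.01 nM, 19 and 2 at the middle dose and 24 and 1 at 3 nM. In 4 of the 25 the change was more negative at 0.01 nM than at the middle dose (RELB, NFKBIE, NFKBIA and PTGS2) and the other 21 were not called, while against 3 nM it was more positive at 0.01 nM in 5, more negative in 2 and not called in 18, with medians of 1.10 at 0.01 nM, 1.28 at the middle dose and 1.08 at 3 nM. TRAF1 changed by 3.31 at 0.01 nM, 3.75 at the middle dose and 2.82 at 3 nM, and the differences of -0.44 (SE 0.34, adjusted p = 0.757) and 0.49 (SE 0.27, adjusted p = 0.311) did not pass the test. BIRC3 (difference to 3 nM 1.17, SE 0.19) and IRAK2 (1.19, SE 0.31) rose more in this hour than at 3 nM, as did other risers. AREG changed by 2.66, 2.31 and 1.12 at the 3 doses (difference to 3 nM 1.54, SE 0.16). IL11 changed by 2.50, 2.37 and 1.29 (difference 1.21, SE 0.11). At 3 nM BIRC3 began higher, at 21.3, 16.5 and 13.6 CPM at 1 h, and had 63.2, 52.5 and 47.3 CPM at 2 h. Both BIRC3 and AREG went on rising there after 2 h. At 4 h of 3 nM BIRC3 had 179, 162 and 155 CPM. AREG had 22.2, 20.8 and 20.7 CPM at 2 h and 44.3, 41.5 and 40.8 CPM at 4 h of 3 nM. G2 and mitosis genes differed from the 3 nM hour in 18 of 27, each more negative at 0.01 nM, and their medians were -0.39 at 0.01 nM, -0.31 at the middle dose and -0.09 at 3 nM.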

How the data were processed

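The deposited estimated counts came from Salmon 0.9.1 on GRCh38, with FastQC 0.11.5, per the submitters' processing notes; the annotation release and the strand setting are not given in the sources used here. The authors deposited a table of TPM beside them, which supplied gene symbols and the values for limma. The estimated counts, of which 54.2% of those above 0 were whole within 1e-06, were rounded. Of 57665 rows, 18040 passed edgeR's filter on low counts. All 60 libraries were fitted with 20 group means (40 residual degrees of freedom) by edgeR 4.0.16 in R 4.3.3, with TMM scaling and a quasi-likelihood F test, and p-values were adjusted per comparison by Benjamini and Hochberg. The SE is the log2 change divided by the root of F. The fit was tested on simulated data. Those counts were drawn with the fit's own estimate of the spread, so they cannot show whether that spread is technical. Alternatives were DESeq2 1.42.0, its size factors in edgeR, limma 3.58.1 on log2(TPM + 1) or log2(TPM + 0.1), other filters, fewer libraries, each library left out and a replicate block.

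The 6 libraries held 5598803 to 7931597 counts, and replicates differed by more than sampling noise. Named genes were the 15 largest called changes in each direction with a mean of at least 5 CPM, up to 4 called members of each list, ATF4, DDIT3, ATF3, TRIB3, CHAC1, ASNS and PPP1R15A, and the 5 largest differences between doses in each direction. Other genes, among them those called in this hour alone, NFKBIE, TNFAIP3 and MYC, and the NF-kB motif were chosen after their values were seen. The members and lists were chosen with earlier results of these data known. 1 of these named genes is not reported here.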

Additional observations from a re-analysis of the deposited data

Results flagged for a closer look

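Named genes whose change from 1 to 2 h differed between 0.01 nM and another dose, by edgeR's test of the difference itself on all genes, stood out for a closer look. The values are the log2 change at 0.01 nM minus that at the other dose, so a positive value is a more positive change at 0.01 nM.

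Against the middle dose, the more positive changes at 0.01 nM were in PCDH7 (0.62), DNAJC3 (0.59), TMEM19 (0.54), HSPA1B (0.53) and SOX9 (0.53). The more negative ones were in DDIT4 (-1.52), ATF3 (-1.42), SESN2 (-1.35), CTH (-1.28), EGR4 (-1.13), ASNS (-0.98), TRIB3 (-0.97), EGR1 (-0.96), CHAC1 (-0.86), NR4A2 (-0.83), PPP1R15A (-0.78), RHOB (-0.76), DDIT3 (-0.66) and ATF4 (-0.26). Of the more negative ones, DDIT4, ATF3, SESN2, CTH, ASNS, TRIB3, CHAC1, PPP1R15A, DDIT3 and ATF4 belong to the ISR core list. ATF3, EGR1, EGR4 and NR4A2 belong to the immediate early genes. Of the more positive ones, DNAJC3 belongs to the list of ISR kinases and phosphatase subunits and to the ER chaperones.

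Against 3 nM, the more positive changes at 0.01 nM were in LONRF2 (1.87), PCDH7 (1.56), AREG (1.54), EPPK1 (1.39), CSF2 (1.37), RP11-309L24.2 (1.23), IL11 (1.21), IRAK2 (1.19), BIRC3 (1.17), SEMA7A (0.86), SOX9 (0.70), DNAJC3 (0.61), TMEM19 (0.54) and HSPA1B (0.44). The more negative ones were in ATF3 (-2.27), TVP23C-CDRT4 (-2.23), EGR1 (-1.76), ADAMTS1 (-1.73), EGR4 (-1.69), EGR2 (-1.64), RHOB (-1.60), RP11-1100L3.8 (-1.58), FOS (-1.42), NR4A2 (-1.38), SESN2 (-1.27), PPP1R15A (-1.19), CTH (-1.17), MN1 (-1.10), BMF (-0.99), AC011738.4 (-0.81), IKZF2 (-0.79), DDIT4 (-0.78), ASNS (-0.78), DRD1 (-0.73), DDIT3 (-0.55), TRIB3 (-0.46) and ATF4 (-0.19). RP11-309L24.2, RP11-1100L3.8 and AC011738.4 carry only clone names, and the strand setting of the counting is not given in the sources used here, so reads of overlapping genes may enter them. The 3 nM libraries were deeper than those of the other doses, and the part of depth in the differences to 3 nM was not tested.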

How the results depend on the processing

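The count of genes called in this hour, 5086, was 5079 with DESeq2's size factors, 4805 with DESeq2, 4404 without a filter, 4764 with a mean of at least 5 CPM, 3848, 3706 and 3829 with limma on log2(TPM + 1), log2(TPM + 0.1) and log2(TPM + 1) without a filter, and 4161 with only the libraries compared. Limma gave 1657, 1502 and 1346 calls for the hour at 3 nM, 681, 647 and 569 for its difference to 0.01 nM and 2780, 2738 and 2544 for 24 against 16 h. For the difference to the middle dose it gave 147 on log2(TPM + 1) and 127 on log2(TPM + 0.1), and only the libraries compared gave 130. The hour at the middle dose had 3551 calls on log2(TPM + 0.1), and 8 against 4 h had 3315 on log2(TPM + 1) without a filter. The cause was not tested.

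Leaving out 1 library gave 4249 to 4639 calls for this hour, 4511 to 4828 at the middle dose, 4692 to 5279 at 3 nM, 165 to 185 and 1382 to 1747 for the differences to the middle dose and 3 nM, 3583 to 5113 and 6579 to 7871 for 1 h and 2 h against untreated, and 4848 to 5156, 4215 to 4674, 5145 to 5328 and 3333 to 3964 for the later intervals in order. On log2(TPM + 1) the median of all genes moved to 0.108 for 1 h against untreated, so changes from untreated depend on the scaling, and against untreated set 1 or set 2 alone 5111 and 5086 genes were called at 1 h. CTH, not called at 0.09, was at -0.04 in the 3 limma settings. The median of the BCL2 family list, 0.0531, was -0.0411, -0.0413 and -0.0411 there, and that of ISR kinases and phosphatase subunits, 0.0488, was -0.0561 without 1 h replicate 1 and -0.0481 without 2 h replicate 1, within a range of -0.0561 to 0.0998 without 1 library. EGR4 was not called on log2(TPM + 0.1) (-0.69, adjusted p = 0.151), nor TVP23C-CDRT4 (-1.57, adjusted p = 0.063). Over all alternatives, 708 values of named genes kept direction and side of the threshold, 8 lost the call, 1 gained it and 3 changed sign.

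The labels share replicate numbers across groups but tie them to no culture or day. Deviations of same-numbered 2 h and 1 h libraries correlated at 0.18, 0.151 and 0.0885 over 8531 genes. 1 of the 3 was under the limit of 0.1 set for pairing, so the numbers were not used as pairs, although each library correlated best with its own number, a hint from the data and not from the design. With the replicate block 5099 genes were called in this hour, 5384 at the middle dose, 5765 at 3 nM, and 234 and 1787 for the differences. Counts of 7135401 to 7931597 at 2 h and 5598803 to 7588253 at 1 h limit what low genes such as TNF and IL6 can show.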

Other observations

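The following were chosen after the values were seen and are descriptions. Of 14114 protein-coding genes tested 32.6% were called in this hour, against 12.4% of 1104 lincRNA genes and 12.3% of 1048 antisense genes. The median levels were 28.1, 1.8 and 1.69 CPM, and the part of level in these shares was not tested.

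Of 484 zinc finger genes of the ZNF family 30.6% were called, close to the 28.2% of all genes and the 32.6% of protein-coding genes. Of the 484, 19.8% fell (96) and 10.7% rose (52), against 12.7% and 15.5% of all genes, with a median log2 change of -0.175 at 0.01 nM, and medians of -0.103 at the middle dose and -0.063 at 3 nM. Their median level was 7.77 CPM, against 28.1 CPM for protein-coding genes, and the part of level was not tested. Among protein-coding genes sorted by the length of the gene, the tenth with the longest genes (median 275 kb) had 16.6% lower and 8.01% higher, with a median of -0.0695, and the next longest (130 kb) 19.4% lower and 17.5% higher, with a median of -0.0255. In the other 8 groups 11.4% to 16.9% were lower and 14.2% to 22.8% higher. Median levels were 18.9 CPM in the longest group, 31.9 CPM in the next and 19.2 to 32.9 CPM in the others. The longest group had a median log2 change of -0.0513 at the middle dose and -0.0234 at 3 nM. For the next longest these were -0.0388 and -0.0118.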
